A study of Mus musculus with 6 samples.

Results

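Immunoglobulin gene segments were followed here in bone marrow cells of mice with mutations in CBL and RUNX1, a model of myelodysplastic syndrome. The rows were those of the deposited TPM table whose GENCODE gene type is an immunoglobulin one and that held at least 1 TPM (a share of the library corrected for transcript length) in 2 or more of the 6 libraries. They numbered 19 of the 28 immunoglobulin rows in the table, and of 28987 gene rows in all. The 28 rows stand for 6.48% of the 432 immunoglobulin genes that GENCODE M21 annotates, and the other genes were not analysed here. By locus, 8 members lie in the heavy chain locus, 10 in the kappa locus and 1 in the lambda locus. By segment, 6 are constant (C), 9 joining (J) and 4 variable (V) rows, and no diversity (D) row reached the threshold. The members were chosen by their TPM levels in all 6 libraries, so a level above the threshold is a description and not a result.

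All libraries came from bone marrow of C57BL/6 mice carrying the CBL/RUNX1 mutant clone. No library came from cells without the mutations. Ly6G+ myeloid cells of the mutant clone, obtained by flow sorting on this neutrophil surface antigen, gave 2 libraries after Mdivi-1 and 2 after vehicle. HSCPs, the stem and progenitor fraction enriched with CD117 (Kit) beads and then sorted for the mutant clone, gave 1 library after Mdivi-1 and 1 after vehicle. Mdivi-1 is a small molecule known as an inhibitor of the mitochondrial fission factor Drp1. The sources used here give no dose or duration for it, no age of the mice and no description of how the mutant alleles were made. Marrow was taken from individual mice, but the labels do not say which mouse each library came from. The p-values therefore measure only the spread between libraries, which may be technical.

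An antibody joins heavy chains to light chains. In developing B cells, recombination joins V, D and J segments of the heavy chain locus, and V and J segments of the kappa or lambda light chain locus, to make each variable exon. The joined exon is spliced to a constant region: mu (Ighm) first, and after class switching a gamma (Ighg) or other one. Plasma cells, many of which live in the bone marrow, transcribe the rearranged genes at very high levels. The mu region is also transcribed before recombination, as sterile transcripts of the unrearranged locus.

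The J segments are shown because they are the shortest of the 19 rows and their mix differed between the arms. They are printed in the sense of transcription, as in the GENCODE M21 transcripts (build GRCm38, mm10). Capitals mark the start of the conserved core of J segments, searched as TTCGG in kappa and TGGGG in heavy segments. The heavy segments lie on the minus strand of chromosome 12 between 113428514 and 113429833, and the kappa segments on the plus strand of chromosome 6 between 70722562 and 70723927.
Ighj1: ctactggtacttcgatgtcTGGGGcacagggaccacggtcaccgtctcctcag
Ighj2: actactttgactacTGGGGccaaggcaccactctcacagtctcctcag
Ighj3: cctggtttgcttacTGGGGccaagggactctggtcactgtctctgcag
Ighj4: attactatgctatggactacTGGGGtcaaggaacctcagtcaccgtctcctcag
Igkj1: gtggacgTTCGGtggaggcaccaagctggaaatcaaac
Igkj2: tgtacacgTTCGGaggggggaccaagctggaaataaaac
Igkj3: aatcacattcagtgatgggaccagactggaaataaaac
Igkj4: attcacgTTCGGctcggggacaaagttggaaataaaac
Igkj5: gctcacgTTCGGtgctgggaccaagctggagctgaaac
The kappa core was present in 4 of 5 kappa segments and not in the letters of Igkj3, which is regarded as nonfunctional in the mouse. The heavy core was present in 4 of 4. Searched on both strands in the first 38 bases of 141715 M21 transcripts, the kappa core occurred in 3.4% and the heavy core in 9.51%. The J segments were searched whole, and the heavy ones are longer than 38 bases, so the heavy values cover unlike lengths.

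The gamma constant regions are shown because the mix of these close relatives differed between the arms. The first 120 bases of each follow, from the minus strand of chromosome 12, with capitals where the base differs from Ighg1 at the same place.
Ighg1: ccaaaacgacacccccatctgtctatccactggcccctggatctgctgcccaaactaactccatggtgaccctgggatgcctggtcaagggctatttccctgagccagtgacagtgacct
Ighg2b: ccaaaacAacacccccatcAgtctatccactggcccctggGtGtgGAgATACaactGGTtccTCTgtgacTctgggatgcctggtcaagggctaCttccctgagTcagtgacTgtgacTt
Ighg2c: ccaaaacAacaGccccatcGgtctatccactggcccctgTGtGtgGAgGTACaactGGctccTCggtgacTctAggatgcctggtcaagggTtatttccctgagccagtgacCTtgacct
Ighg3: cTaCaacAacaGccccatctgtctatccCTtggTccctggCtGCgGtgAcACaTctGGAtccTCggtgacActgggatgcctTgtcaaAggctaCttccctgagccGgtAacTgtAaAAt
Over these bases Ighg2b and Ighg2c each had 82.5% identity to Ighg1, with 21 differing bases, and Ighg3 had 75.0%, with 30. Of all 31-base words (the length kallisto uses by default) in its annotated transcripts, 98.3% of those of Ighg1, 90.7% of Ighg2b and 96.4% of Ighg3 occurred in no other M21 gene, so most of each row can be told apart from the others.

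The V rows share far more sequence with relatives. Igkv1-115 is printed by its first 300 bases, Igkv4-71 by its shorter annotated transcript, whole, and the constant regions Igkc and Iglc2 by their first 120 bases, with capitals for bases inside a 31-base word found in no other M21 gene.
Igkv1-115: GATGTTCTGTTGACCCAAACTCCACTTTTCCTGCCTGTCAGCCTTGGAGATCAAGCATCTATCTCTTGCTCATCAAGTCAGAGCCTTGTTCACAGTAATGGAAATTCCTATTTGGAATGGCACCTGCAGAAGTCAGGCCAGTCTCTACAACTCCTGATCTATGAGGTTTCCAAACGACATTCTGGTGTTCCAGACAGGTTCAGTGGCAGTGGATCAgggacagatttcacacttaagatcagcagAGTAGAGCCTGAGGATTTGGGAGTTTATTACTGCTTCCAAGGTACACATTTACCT
Igkv4-71: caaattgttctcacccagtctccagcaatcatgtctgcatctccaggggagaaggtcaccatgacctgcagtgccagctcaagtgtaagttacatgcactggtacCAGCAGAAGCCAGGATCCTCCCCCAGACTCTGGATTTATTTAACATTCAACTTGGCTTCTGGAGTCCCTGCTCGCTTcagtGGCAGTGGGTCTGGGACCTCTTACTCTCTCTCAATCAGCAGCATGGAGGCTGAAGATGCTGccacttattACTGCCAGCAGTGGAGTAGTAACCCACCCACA
Igkc: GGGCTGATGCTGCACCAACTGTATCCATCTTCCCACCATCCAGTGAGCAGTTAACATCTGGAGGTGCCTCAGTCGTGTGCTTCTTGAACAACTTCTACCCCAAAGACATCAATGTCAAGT
Iglc2: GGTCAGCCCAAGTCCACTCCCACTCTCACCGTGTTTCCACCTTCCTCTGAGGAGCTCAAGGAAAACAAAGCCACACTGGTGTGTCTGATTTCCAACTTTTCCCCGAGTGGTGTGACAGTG
All 31-base words of Igkc, Ighm and the 9 J segments were found in no other gene. Over both transcripts of Igkv4-71 only 34.9% were, since it shares words with 32 other immunoglobulin genes, and for Igkv4-69 50%, with 31. The corresponding values were 73.2% for Igkv1-115, 78.5% for Igkv11-106 and 80.4% for Iglc2. Reads from V genes that have no row could therefore count towards these rows, and their levels are uncertain; for this reason each locus is also given as a sum.

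Read depth is unknown, because the values are TPM; totals per library ran from 963243 to 978976 TPM, and 11456 to 11930 genes reached 1 TPM. No pair of libraries shared all values. The labelled cell types were checked against markers: the 15 neutrophil genes summed to 279129 to 289170 TPM in Ly6G+ libraries, against 96387 and 103797 TPM in HSCP libraries. Kit was at 8.73 to 14.1 TPM in Ly6G+ libraries, against 64.9 TPM in HSCPs after Mdivi-1 and 72.2 TPM after vehicle, so the HSCP libraries held both progenitor and neutrophil RNA.

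Immunoglobulin RNA was higher after Mdivi-1 in both populations when all 28 rows were summed. The sum was 1980 and 1834 TPM in Ly6G+ cells after Mdivi-1, against 1023 and 1075 TPM after vehicle, a ratio of means of 1.82. In HSCPs it was 444 TPM after Mdivi-1, against 296 TPM after vehicle, a ratio of 1.503. The kappa locus, and in it the single row Igkc, made up most of this. Igkc alone had 1524 and 1397 TPM in Ly6G+ cells after Mdivi-1, against 677 and 695 TPM after vehicle. In HSCPs it had 291 TPM after Mdivi-1, against 147 TPM after vehicle. All kappa rows summed to 1773 and 1625 TPM in Ly6G+ cells after Mdivi-1, against 843 and 907 TPM after vehicle, and to 347 TPM in HSCPs after Mdivi-1, against 192 TPM after vehicle. The heavy locus changed less, with 177 and 181 TPM in Ly6G+ cells after Mdivi-1, against 168 and 156 TPM after vehicle, and 91.5 TPM in HSCPs after Mdivi-1, against 101 TPM after vehicle. Without the J and D rows the heavy change in Ly6G+ cells was −0.01 on the log2 scale, against 0.14 with them. The heavy sum holds no alpha (IgA) or delta (IgD) constant region, as neither was among the 28 rows. The sums carry no test. In these bulk samples fewer cells of a type and less RNA per cell cannot be told apart.

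Between Mdivi-1 and vehicle in Ly6G+ cells, 8 of the 19 members passed the test, 6 higher and 2 lower after Mdivi-1. The test was limma on log2(TPM + 1) over 11775 genes with Benjamini-Hochberg adjustment and a threshold of 0.05. All log2 differences of single rows below, and their medians, are on this scale, which understates the change of low rows. The log2 ratios of sums are of summed TPM with no 1 added. Over all genes 6.7% passed, 2.46% higher and 4.24% lower. The share of higher calls among all calls was 36.8%, and 49.1% or 50.3% after median-of-ratios or upper-quartile scaling. Members had a median difference of 0.34, against −0.05 over all genes. The arms did not overlap in 9 members that were higher and 7 that were lower after Mdivi-1, and overlapped in 3; over all genes they did not overlap in 57.7%. Ighg1, Ighg3 and Igkj3 reached 1 TPM in no library of one arm, so they entered only through the arm where they were high, and their part of the count is no evidence of a change. With 2 libraries per arm the calls were fragile: without vehicle replicate 1 or 2 only Igkj2 remained called among members, with 42 and 22 calls over all genes. Without Mdivi-1 replicate 1 or 2 the fit called 7 and 5 members, of which Ighj2 and Igkj5, without Mdivi-1 replicate 1, were not called with all libraries, and 279 and 212 genes in all. When a vehicle library was left out, Ighg1 and Igkj3 no longer held 1 TPM in 2 libraries and were not tested. The same held for Ighg3 when an Mdivi-1 library was left out. Part of the fall in member calls is therefore rows left untested. The gene lists below were not refitted with a library left out.

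**Figure D1:**
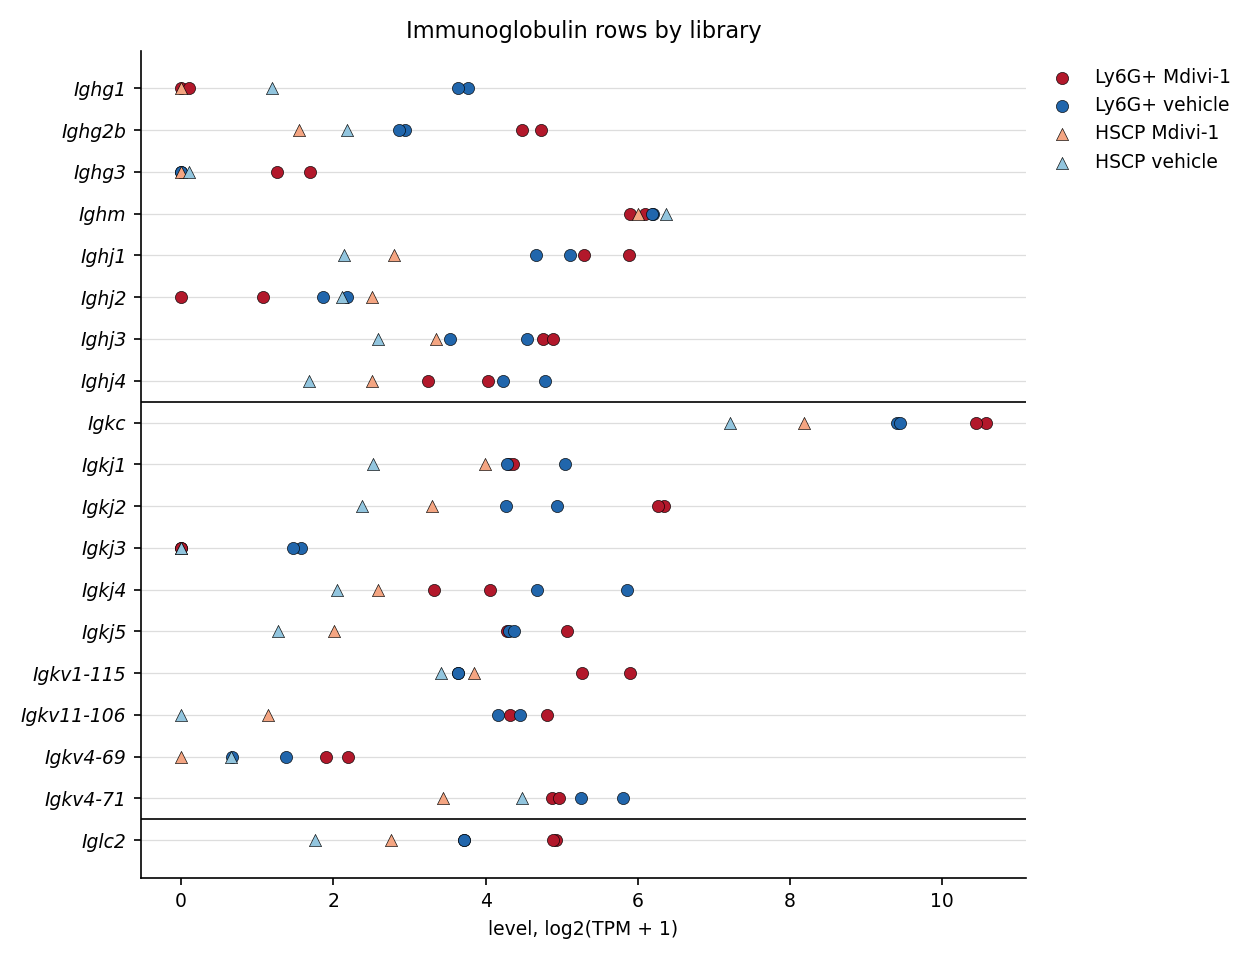
Level of each of the 19 rows on the log2(TPM + 1) axis in each library, with circles for Ly6G+ and triangles for HSCP libraries, and lines between the heavy, kappa and lambda loci. Igkc stands highest, at 1524 and 1397 TPM in Ly6G+ cells after Mdivi-1, and Ighm hardly differs between libraries.

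The light chain constant regions rose together. Igkc, the kappa constant region carried by most mouse antibodies (chromosome 6, 70726435 to 70726966, plus strand), was the highest member in every library. It had 1524 and 1397 TPM in Ly6G+ cells after Mdivi-1, against 677 and 695 TPM after vehicle, averaging 1460 ± 89.9 and 686 ± 12.9 TPM (SD, n = 2 each). The arms were far apart relative to their spread, and the log2 difference was 1.09 (SE 0.0595, limma adjusted p = 0.00395). Iglc2, a lambda constant region on the minus strand of chromosome 16 (19198396 to 19200351), had 29.5 and 28.6 TPM after Mdivi-1, against 12.2 and 12.2 TPM after vehicle, and a log2 difference of 1.19 (SE 0.0714, limma adjusted p = 0.00457). The ratio of Igkc to Iglc2 was 51.7 and 48.8 after Mdivi-1, against 55.7 and 57.0 after vehicle, slightly lower after Mdivi-1. Without vehicle replicate 1 the log2 differences were 1.07 for Igkc and 1.19 for Iglc2, each with a limma adjusted p = 0.0536, and without vehicle replicate 2 they were 1.11 and 1.19, each with a limma adjusted p = 0.0569.

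The mu constant region did not follow. Ighm, the constant region of IgM (chromosome 12, 113418558 to 113422730, minus strand), had 67.3 and 58.6 TPM in Ly6G+ cells after Mdivi-1, against 72.7 and 72.0 TPM after vehicle. The arms did not overlap, but the log2 difference of −0.20 (SE 0.0828) did not pass (limma adjusted p = 0.213). The ratio of Igkc to Ighm was therefore 22.6 and 23.8 after Mdivi-1, against 9.31 and 9.66 after vehicle.

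The mix of gamma constant regions differed between the arms. Ighg1, the constant region of IgG1 (113325240 to 113330523), was listed at 0 and 0.0762 TPM in Ly6G+ cells after Mdivi-1, against 12.7 and 11.4 TPM after vehicle. Both vehicle libraries held it plainly and both Mdivi-1 libraries had next to none, so it was tested only because of its vehicle level, and its values are given as a description. Ighg2b, the constant region of IgG2b (113302965 to 113307933), had 25.6 and 21.2 TPM after Mdivi-1, against 6.68 and 6.29 TPM after vehicle. Its arms averaged 23.4 ± 3.08 and 6.48 ± 0.279 TPM (SD, n = 2 each), and the log2 difference was 1.70 (SE 0.116, limma adjusted p = 0.00544). Ighg3, the constant region of IgG3 (113356224 to 113361232), had 1.39 and 2.23 TPM after Mdivi-1 and was listed at 0 in both vehicle libraries; it was tested only because of its Mdivi-1 level and is likewise described only. Ighg2c, which stayed under the threshold for members, had 0.961 and 0.926 TPM after Mdivi-1, against 0.0720 and 0.0642 TPM after vehicle. As a share of the 4 gamma rows, Ighg1 held 0% and 0.311% after Mdivi-1, against 65.2% and 64.2% after vehicle, and Ighg2b held 91.6% and 86.8% after Mdivi-1, against 34.4% and 35.4% after vehicle. The summed heavy constant regions, mu and gamma, were 95.3 and 83.1 TPM after Mdivi-1, against 92.2 and 89.8 TPM after vehicle, and the arms overlapped. The alpha and delta constant regions were not among the immunoglobulin rows, so this sum is not the whole of the heavy chain RNA. Without vehicle replicate 1 or 2 the limma adjusted p of Ighg2b was 0.0676 and 0.0678.

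**Figure D2:**
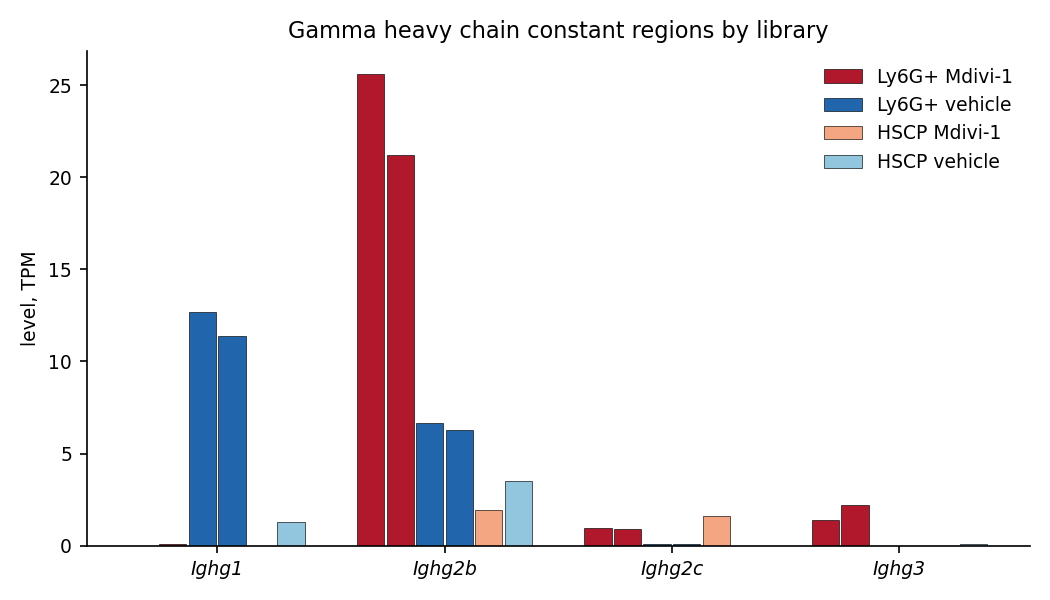
Level in TPM of the 4 gamma constant regions, 1 bar per library. In Ly6G+ cells Ighg2b reached 25.6 and 21.2 TPM after Mdivi-1, against 6.68 and 6.29 TPM after vehicle, while Ighg1 was at 0 and 0.0762 TPM after Mdivi-1, against 12.7 and 11.4 TPM after vehicle.

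Among kappa J segments the mix differed between arms. Igkj2, the second segment of the cluster, had 80.1 and 76.0 TPM in Ly6G+ cells after Mdivi-1, against 18.3 and 29.6 TPM after vehicle (log2 difference 1.70, SE 0.223, limma adjusted p = 0.0256). It held 60.3% and 55.3% of the kappa J sum after Mdivi-1, against 19.2% and 23.4% after vehicle. Igkj4 had 15.6 and 9.05 TPM after Mdivi-1, against 24.5 and 57.0 TPM after vehicle, a log2 difference of −1.57 that did not pass (limma adjusted p = 0.165). The vehicle libraries were themselves far apart for this segment. Igkj3, the segment whose letters lack the core, was listed at 0 in both Mdivi-1 libraries, against 1.99 and 1.77 TPM in the vehicle libraries, which alone brought it into the test, and was the lowest kappa J row. Igkj1 had 18.7 and 19.6 TPM after Mdivi-1, against 32.0 and 18.4 TPM after vehicle, and Igkj5 18.4 and 32.7 TPM after Mdivi-1, against 18.7 and 19.7 TPM after vehicle; the arms of both overlapped and neither passed. The kappa J sum was 133 and 137 TPM after Mdivi-1, against 95.5 and 127 TPM after vehicle. These rows hold only 8 to 13 words of 31 bases each, so few reads can be assigned to them. Without Mdivi-1 replicate 1 or 2 the limma adjusted p of Igkj2 was 0.110 and 0.134.

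None of the 4 heavy J segments passed. Ighj1 had 38.1 and 58.4 TPM in Ly6G+ cells after Mdivi-1, against 24.3 and 33.7 TPM after vehicle, and Ighj3 had 26.0 and 28.7 TPM after Mdivi-1, against 22.4 and 10.6 TPM after vehicle. Ighj2 had 1.10 and 0 TPM after Mdivi-1, against 2.65 and 3.54 TPM after vehicle, and Ighj4 had 15.4 and 8.49 TPM after Mdivi-1, against 26.5 and 17.7 TPM after vehicle. Arms were apart in each of these rows, higher after Mdivi-1 in Ighj1 and Ighj3 and lower in Ighj2 and Ighj4, with limma adjusted p-values between 0.0935 and 0.240. The heavy J sum was 80.5 and 95.5 TPM after Mdivi-1, against 75.8 and 65.5 TPM after vehicle.

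**Figure D3:**
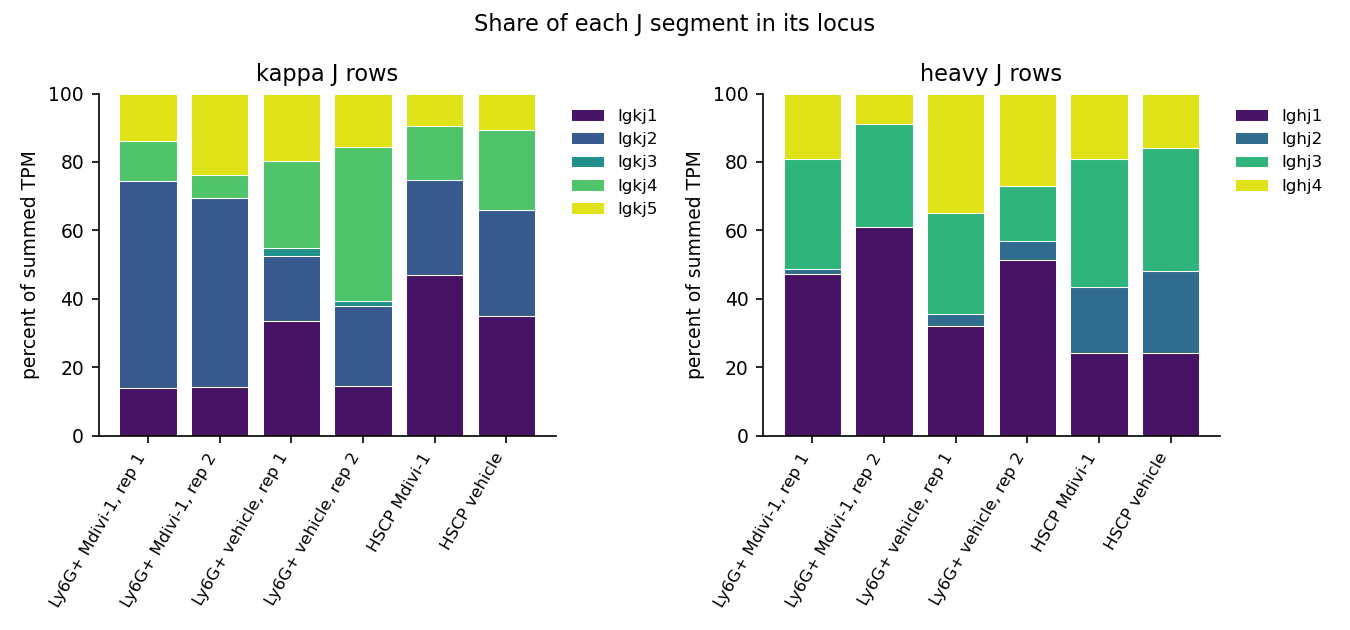
Share of each J segment in the summed TPM of its locus, as stacked percentages for each library. Igkj2 takes 60.3% and 55.3% of the kappa sum in Ly6G+ cells after Mdivi-1, against 19.2% and 23.4% after vehicle.

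Of the 4 V rows, all in the kappa locus, only Igkv1-115 passed. This row, annotated as a pseudogene (chromosome 6, 68161415 to 68161716, plus strand), had 58.6 and 37.7 TPM in Ly6G+ cells after Mdivi-1, against 11.5 and 11.4 TPM after vehicle (log2 difference 1.94, SE 0.207, limma adjusted p = 0.0138). The Mdivi-1 libraries were both high but differed from each other, while the vehicle libraries nearly coincided. Without vehicle replicate 1 or 2 its limma adjusted p was 0.108 and 0.122. Igkv4-71 (69243158 to 69243688, minus strand) had 28.3 and 30.2 TPM after Mdivi-1, against 37.1 and 54.8 TPM after vehicle (limma adjusted p = 0.125). Igkv11-106, also annotated as a pseudogene (68339527 to 68339995, plus strand), had 27.1 and 19.0 TPM after Mdivi-1, against 20.8 and 16.9 TPM after vehicle. Its arms overlapped. Igkv4-69 had 2.74 and 3.55 TPM after Mdivi-1, against 0.592 and 1.60 TPM after vehicle (limma adjusted p = 0.107). The 4 rows with the 3 V rows listed at 0 summed to 117 and 90.4 TPM after Mdivi-1, against 70.0 and 84.8 TPM after vehicle.

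**Figure D4:**
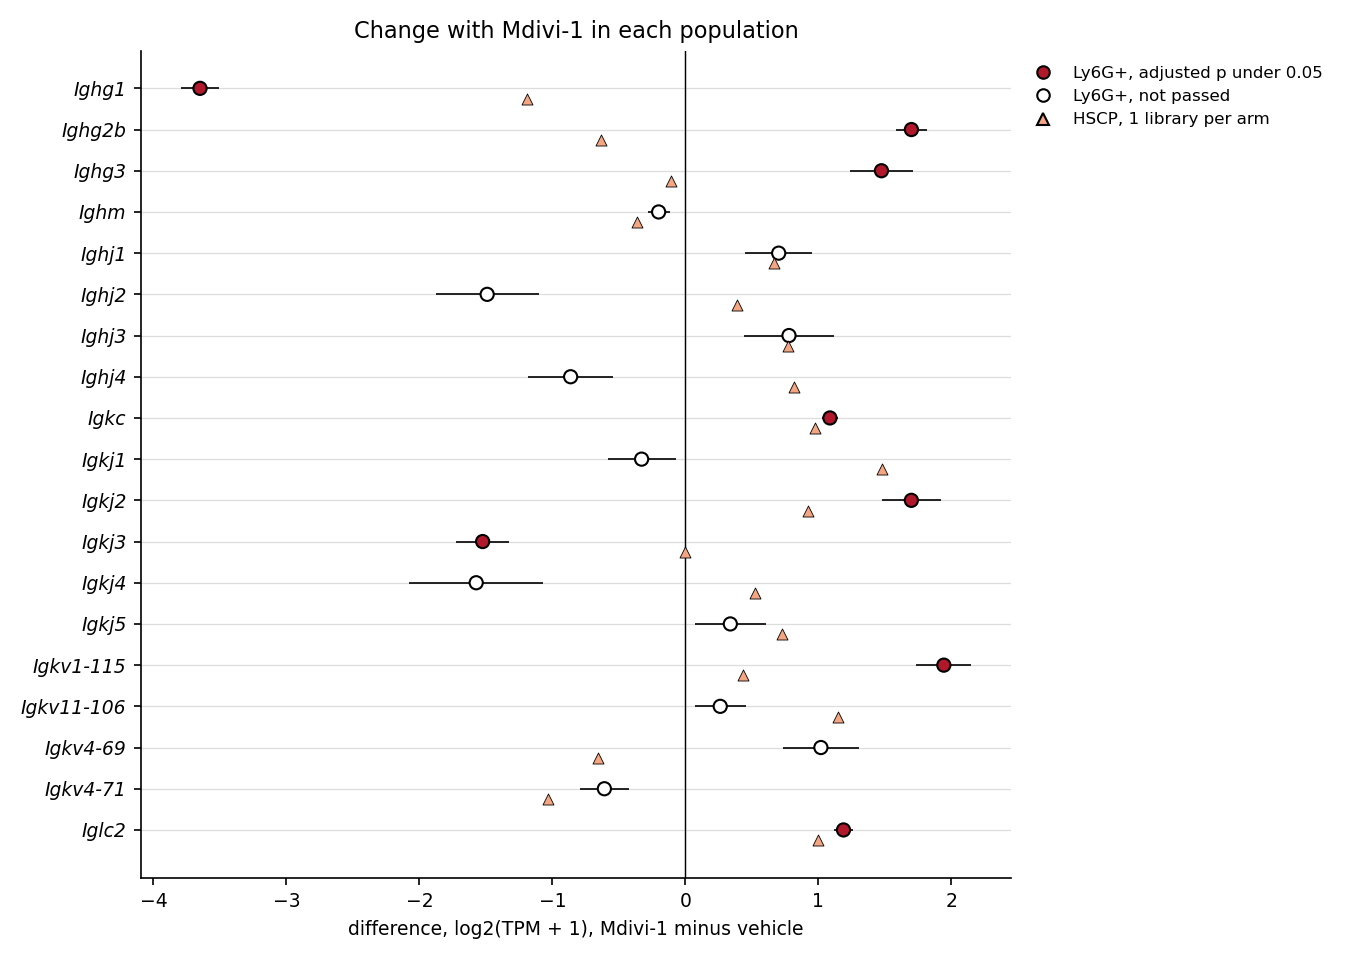
Difference in log2(TPM + 1), Mdivi-1 minus vehicle, for each row; circles are Ly6G+ cells with the standard error of the limma fit, filled where the adjusted p passed 0.05, and triangles are HSCPs, with 1 library per arm. Igkc (1.09) and Iglc2 (1.19) lie to the right of 0 in both populations, while Ighg2b (1.70) does so in Ly6G+ cells alone and is at −0.63 in HSCPs.

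Many genes of the B lineage and of the pre-B receptor were lower after Mdivi-1. Of 21 tested genes of the B lineage other than immunoglobulins, 13 were lower and 0 higher after Mdivi-1 in Ly6G+ cells, with a median log2 difference of −1.04. Among those that did not pass were Fcrl1 (0.28), Btla (0.19), Bank1 (−0.16) and Cd83 (−0.15). The 25 listed genes in the table summed to 48.8 and 48.2 TPM after Mdivi-1, against 147 and 144 TPM after vehicle, and none was at 0 in a Ly6G+ library. Cd79a, the signalling chain of the B cell receptor, had 2.94 and 1.76 TPM after Mdivi-1, against 19.7 and 19.1 TPM after vehicle (limma adjusted p = 0.00567). Igll1, a part of the surrogate light chain that pairs with mu in pre-B cells, had 0.655 and 1.48 TPM after Mdivi-1, against 30.1 and 28.7 TPM after vehicle. Its log2 difference was −3.91 (limma adjusted p = 0.00395). So Igkc and Iglc2 were higher in the libraries where many B lineage and pre-B receptor genes were lower. Of 17 tested genes of the pre-B receptor and recombination, 9 were lower and 0 higher (median −0.84), and Vpreb2 was at 0 in both Mdivi-1 libraries.

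Within the plasma cell and secretion list, Jchain moved with the light chains. Jchain encodes the chain that joins IgM and IgA into polymers. It had 32.0 and 39.97 TPM in Ly6G+ cells after Mdivi-1, against 17.5 and 17.3 TPM after vehicle (log2 difference 0.9996, SE 0.118, limma adjusted p = 0.0180). Of 17 tested genes of the plasma cell and secretion list, whose median was −0.01, it alone passed as higher, and 3 passed as lower. Mzb1, a chaperone of immunoglobulin assembly, had 0.958 and 1.85 TPM after Mdivi-1, against 7.81 and 7.16 TPM after vehicle, a log2 difference of −1.84 (limma adjusted p = 0.0173). Slamf7, a surface receptor of plasma and other cells, and Irf4, a transcription factor of plasma cells, had log2 differences of −1.19 and −0.91 (limma adjusted p = 0.0441 and 0.0415). Xbp1, a transcription factor of secretory cells, had 160 and 156 TPM after Mdivi-1, against 144 and 145 TPM after vehicle, and did not pass (limma adjusted p = 0.193). The plasma list summed to 816 and 785 TPM after Mdivi-1, against 736 and 743 TPM after vehicle, and Tnfrsf17, a receptor that marks plasma cells, was at 0 in all 4. The part of B lineage or plasma cell RNA in the immunoglobulin results was not tested.

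Of 18 tested genes of class switching, hypermutation and end joining, 0 passed in either direction (median −0.10). Of 19 genes of B cell receptor signalling 1 was higher, the kinase Lyn (0.30, limma adjusted p = 0.0424), which myeloid cells also use, and 0 were lower. In the list of Fc and polymeric immunoglobulin receptors, Pigr and Fcamr were too low to be tested. Of the 9 tested genes of that list 2 were lower, the IgE receptor chains Fcer1a (−1.52) and Ms4a2 (−0.98), and 0 were higher. Both are also markers of basophils and mast cells, a list in which 7 of 9 tested genes were lower and 0 higher; its 10 genes summed to 387 and 399 TPM after Mdivi-1, against 688 and 702 TPM after vehicle, and the part of those cells in the receptor values was not tested.

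**Figure D5:**
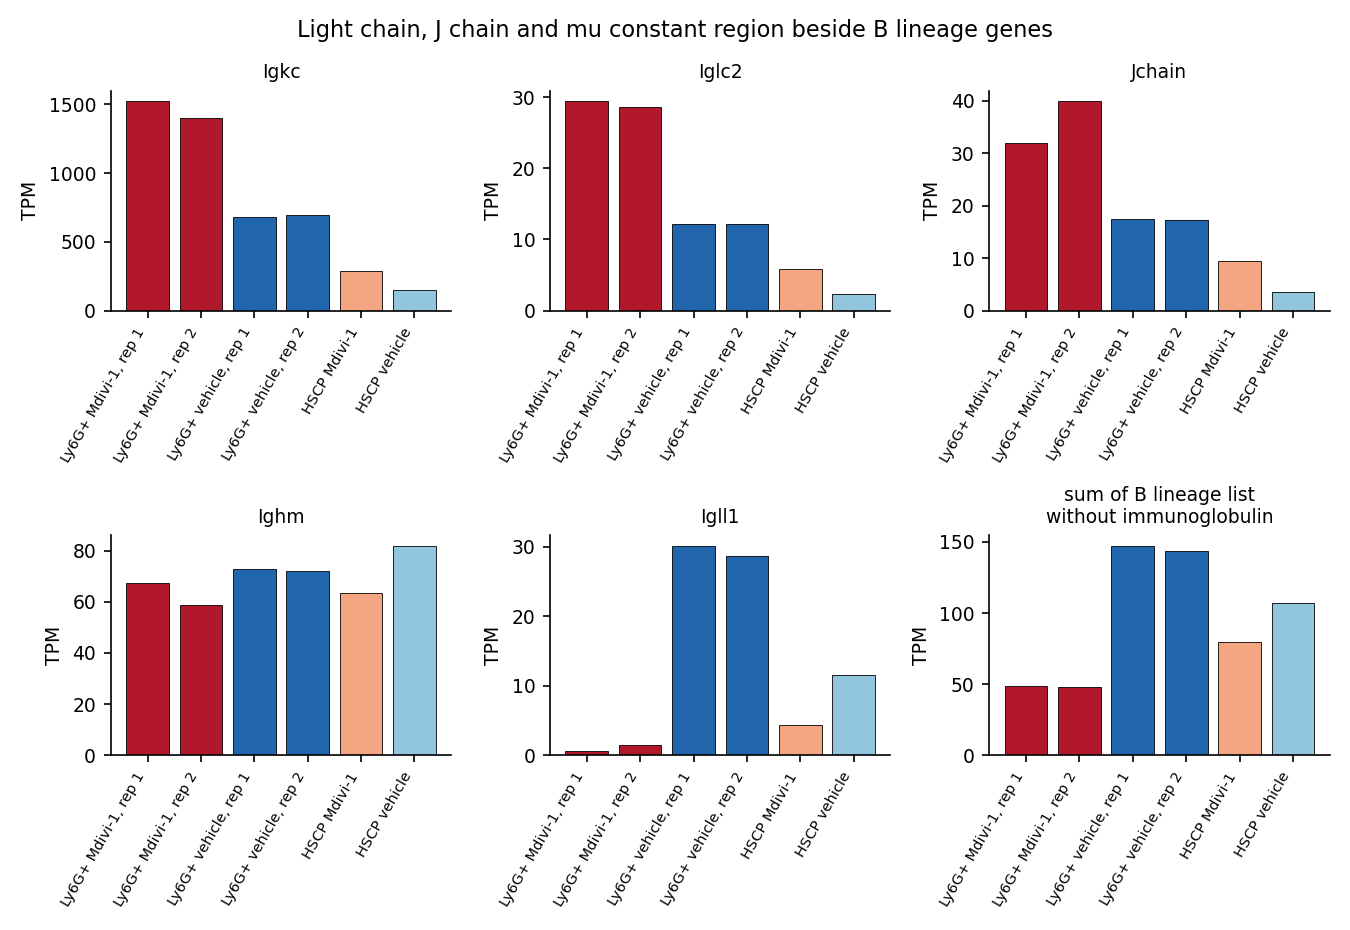
Level in TPM of Igkc, Iglc2, Jchain, Ighm and Igll1 and of the summed B lineage list, 1 bar per library and each panel on its own axis from 0. Igkc, Iglc2 and Jchain are higher after Mdivi-1 than after vehicle in both populations, while the B lineage sum is lower, at 48.8 and 48.2 TPM against 147 and 144 TPM in Ly6G+ cells.

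Ly6G+ cells held more immunoglobulin RNA than HSCPs in both arms. Of the 19 members, 12 were higher and 0 lower in Ly6G+ cells, in a fit over all 6 libraries with treatment as a term. Over the 12338 genes tested 72.4% passed in either direction and 22.2% were higher; the groups did not overlap in 76.1% of genes, and in 13 members, all higher. Members had a median log2 difference of 1.47, against −0.35 over all genes. Median-of-ratios or upper-quartile scaling moved the median of all genes to −0.01 or −0.07, and the share of higher calls was 30.6% unscaled, 49.8% or 46.5% scaled. The HSCP side rests on 2 libraries of different treatment, with 1 per arm assumed to vary like the Ly6G+ libraries.

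Igkc had 677 to 1524 TPM in Ly6G+ libraries, against 291 TPM in HSCPs after Mdivi-1 and 147 TPM after vehicle, a log2 difference of 2.27 (SE 0.0610, limma adjusted p = 6.92e-06). Iglc2 had 12.2 to 29.5 TPM in Ly6G+ libraries, against 5.78 and 2.39 TPM in HSCPs (2.05, SE 0.0876, limma adjusted p = 9.93e-06). For both the populations were well apart, and the ratio of Igkc to Iglc2 was 50.3 in HSCPs after Mdivi-1 and 61.7 after vehicle, near that in Ly6G+ cells. Jchain followed, with 9.50 TPM in HSCPs after Mdivi-1 and 3.61 TPM after vehicle and a log2 difference of 1.90 (limma adjusted p = 2.27e-05). The pseudogene row Igkv11-106 had 16.9 to 27.1 TPM in Ly6G+ libraries, against 1.21 TPM in HSCPs after Mdivi-1 and 0 after vehicle. Its log2 difference was 3.86 (limma adjusted p = 2.91e-05). Ighj1, Igkj2 and Igkj5 had log2 differences of 2.77, 2.62 and 2.87, and Ighj3, Ighj4 and Igkj4 of 1.47, 1.98 and 2.16, while Ighj2, Igkj1 and Igkj3 did not pass. As few reads can be assigned to J rows, these differences are uncertain. Ighg2b (1.89, limma adjusted p = 0.0247), Igkv4-71 (1.27) and Igkv4-69 (1.21) were also higher. Igkv4-69 reached 1 TPM in neither HSCP library and Igkv11-106 in 1, so both met the minimum level for testing through Ly6G+ cells, and their part of the count is no evidence of a difference. Leaving out Mdivi-1 replicate 1 or 2 gave Ighg2b a limma adjusted p of 0.0507 and 0.0710 and Igkv4-69 one of 0.0790 and 0.0750. Igkv4-69 also had 0.0768 without vehicle replicate 2, and Igkj4 had 0.0886 without Mdivi-1 replicate 1 and 0.0659 without vehicle replicate 1 (limma adjusted p).

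Ighm was nearly level across populations. It had 58.6 to 72.7 TPM in Ly6G+ libraries, against 63.5 TPM in HSCPs after Mdivi-1 and 81.9 TPM after vehicle, and the groups overlapped. The log2 difference was −0.09 (limma adjusted p = 0.315), and it turned to 0.28 (limma adjusted p = 0.0274) with median-of-ratios and 0.22 (limma adjusted p = 0.0551) with upper-quartile scaling. Mu made up 70.6% to 80.2% of the heavy constant sum in Ly6G+ libraries, against 94.7% in HSCPs after Mdivi-1 and 94.4% after vehicle. That sum holds no alpha or delta region. The ratio of Igkc to Ighm, 9.31 to 23.8 in Ly6G+ libraries, was 4.58 in HSCPs after Mdivi-1 and 1.801 after vehicle. Of 21 tested B lineage genes 4 were higher and 4 lower in Ly6G+ cells (median 0.33), and the list summed to 79.9 TPM in HSCPs after Mdivi-1 and 107 TPM after vehicle, within the range of the Ly6G+ libraries.

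In HSCPs there was 1 library per arm, so differences have no replicate check and no p. Igkc was at 291 TPM after Mdivi-1, against 147 TPM after vehicle, a log2(TPM + 1) ratio of 0.97, and Iglc2 was at 5.78 TPM, against 2.39 TPM, a log2 ratio of 0.9999. Ighm was at 63.5 TPM after Mdivi-1, against 81.9 TPM after vehicle, a log2 ratio of −0.36. Both light chains were thus higher after Mdivi-1, as in Ly6G+ cells. Ighg1 was listed at 0 after Mdivi-1, against 1.29 TPM after vehicle, and Ighg2b was at 1.93 TPM, against 3.53 TPM, lower and not higher as in Ly6G+ cells. By a size rule of a log2 ratio of at least 1 either way at a mean of at least 10 TPM, met by 0.927% of 7987 genes, only Igkv4-71 was counted, at 9.86 TPM after Mdivi-1, against 21.2 TPM after vehicle (−1.03). The kappa J sum was 31.7 TPM after Mdivi-1, against 13.5 TPM after vehicle, and the heavy J sum 24.5 TPM, against 13.9 TPM. The kappa V sum was lower, at 24.4 TPM after Mdivi-1, against 31.5 TPM after vehicle.

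The difference between the treatment effects of the populations was tested as an interaction, HSCP effect minus Ly6G+ effect. By limma 0% of 12338 genes passed. An unadjusted p under 0.05 was found in 1398 of these 12338 genes and in 10 of the 19 members. Ighg1, Ighg3, Igkj3 and Igkv4-69 are among the 10. They met the minimum level for testing only through the groups where they were high, so their part of the count is no evidence of a difference. For Ighg2b the interaction was −2.33 (limma adjusted p = 0.106). That of Ighg1, at 2.46, is given as a description only. For Igkc it was −0.11 (SE 0.107, limma adjusted p = 0.720) and for Iglc2 −0.19 (SE 0.145, limma adjusted p = 0.658). No member was therefore shown to respond differently in the 2 populations, and with 1 HSCP library per arm this does not show that they responded alike.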

How the data were processed

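The authors deposited 1 table of TPM values per gene for 6 libraries; bcl2fastq, CASAVA 1.8, kallisto and build mm10 are named in the submitters' processing notes. Not given in the sources used here are kallisto's version, annotation and strand setting, or how transcripts were summed to genes. TPM holds no read depth, so no count test or counting interval was possible. Gene types and sequences were taken from GENCODE M21, in which 27458 Ensembl IDs matched and 1529 did not. J segments are so short that few reads can be assigned to them, which makes their values less precise. A gene was tested if 2 or more fitted libraries held 1 TPM of it. The test was limma 3.58.1 in R 4.3.3, applied to log2(TPM + 1) values with a robust trended prior and Benjamini-Hochberg adjustment over all genes. The method was tested on simulated data. Sums and HSCP arms carry no test. All rows that met the threshold are named, and other genes come from fixed lists. The members and lists were chosen with earlier results of these data known. Alternatives were another pseudocount, no filter, 2 scalings, another prior, a replicate block and leaving out each Ly6G+ library.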

Additional observations from a re-analysis of the deposited data

How the results depend on the processing

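Calls between Mdivi-1 and vehicle in Ly6G+ cells depended strongly on the settings. With 1 library left out, Ighg1, Ighg3 or Igkj3 could fall under the filter on low values and go untested. Over all genes 789 were called, 218 without the filter on low values, 346 without the trended robust prior, and 22 to 279 when 1 library was left out. Members called numbered 8, 5 without the filter and 1 to 7 with 1 library left out; without Mdivi-1 replicate 1, Ighj2 (limma adjusted p = 0.0444) and Igkj5 (0.0448) were gained. The replicate numbers were treated as names, because the labels do not say which libraries belong together. Same-numbered libraries did not deviate together (r = −0.03 across 11775 genes), but 1 difference per arm cannot exclude pairing. With a replicate block 325 genes and 8 members were called; Ighg3 (limma adjusted p = 0.0654) and Igkj3 (0.0536) were lost, and Ighj1 (0.0352) and Ighj4 (0.0383) were gained. Without the filter the lost members were Ighg3, Igkj2 and Igkv1-115 (limma adjusted p = 0.0745, 0.0745 and 0.0561), and Igkj2 was lost without the trended prior (0.0581). The interaction over all genes gave 0 calls, 1 with a pseudocount of 0.1 and 0 to 2 with 1 library left out. The heavy sum in Ly6G+ cells had a log2 ratio of 0.14, −0.0117 without D and J rows and 0.23 with median-of-ratios scaling, and that in HSCPs one of −0.14, and −0.37 without D and J rows. The lambda sum, which is Iglc2 alone with no 1 added to its TPM, had a log2 ratio of 1.25 in Ly6G+ cells. It was 1.34 with median-of-ratios and 1.31 with upper-quartile scaling. In HSCPs it was 1.27, and 1.24 under upper-quartile scaling. With 1 library left out, the treatment difference in Ly6G+ cells ran from −0.71 to 0.0529 for Igkj1 and from −0.0621 to 0.74 for Igkj5, turning sign without vehicle replicate 1 and without Mdivi-1 replicate 2. Between populations Ighm turned to 0.28 and 0.22 under the scalings. The interaction turned to 0.0756 for Ighj1 and 0.0509 for Ighj3 with a pseudocount of 0.1, and with 1 library left out it ran from −0.34 to 0.26 for Ighj1, −0.51 to 0.49 for Ighj3 and −0.0151 to 0.79 for Igkj5. Of the values with a changed sign only that of Ighm with median-of-ratios scaling passed the threshold, and the cause was not tested. The rule for members gave 21 rows at 0.5 TPM and 17 at 2 TPM.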

Other observations

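Of the 9 immunoglobulin rows outside the members, 7 were listed at 0 in every library, among them Ighe, the constant region of IgE. Just outside the threshold stood Ighg2c, which was also at 1.60 TPM in HSCPs after Mdivi-1 and at 0 after vehicle, and Ighv6-7, at 0.889 and 2.12 TPM in Ly6G+ cells after Mdivi-1, against 0 and 0.927 TPM after vehicle, and at 0 in both HSCP libraries. Just inside it stood Igkj3, Igkv4-69 and Ighg3.

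The ratio of Ighj4 to Ighj2 was 14.0 in Ly6G+ Mdivi-1 replicate 1, against 10 and 5 in the Ly6G+ vehicle libraries, and 1 in HSCPs after Mdivi-1, against 0.667 after vehicle. In HSCPs the ratio of Mdivi-1 to vehicle was 2.11 in each of Igkj2, Igkj5 and Ighj4. Few reads can be assigned to J rows and read numbers are unknown, so these ratios show no difference in segment use.

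The 100 T cell receptor rows of the table, counted for comparison, summed to 10.9 and 10.005 TPM in Ly6G+ cells after Mdivi-1, against 9.91 and 12.9 TPM after vehicle, and to 3.26 TPM in HSCPs after Mdivi-1, against 4.36 TPM after vehicle. Over 14 tested genes of T and NK cells 1 was higher and 1 lower in Ly6G+ cells after Mdivi-1. Among other lists, 9 of 10 megakaryocyte genes, 7 of 9 basophil and mast cell genes, 5 of 13 erythroid genes and 5 of 13 stem and progenitor genes were lower and 0 higher, and of 10 dendritic cell genes 3 were lower and 1 higher. Of 12 monocyte and macrophage genes 2 were higher and 1 lower, and of 6 eosinophil genes 0 passed. Of 15 neutrophil genes 5 were higher and 4 lower.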
